A study of Mus musculus with 10 samples.

Results

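The mitochondrial genome encodes the membrane-arm core subunits of respiratory complex I (mt-Nd1, mt-Nd2, mt-Nd3, mt-Nd4, mt-Nd4l, mt-Nd5 and mt-Nd6) and a single subunit of complex III, cytochrome b (mt-Cytb). These 8 genes were taken by name from the 26227 genes measured, and all 8 were among the 13004 genes tested, those reaching 1 RPKM in 2 or more libraries. RPKM is the read count of a transcript divided by its length and by the reads of its library, so it can be compared between genes. RNA was sequenced from ER-Hoxa9-Lys-GFP cells, cultured mouse cells of the C57BL/6 strain that carry, in every group, Hoxa9 fused to an estrogen receptor domain and a GFP reporter, and that grew in medium conditioned with stem cell factor. Estradiol (E2) was kept throughout in the untreated group. In the 24 h group it was absent for 24 h and then present for 96 h, in the 40 h group absent for 40 h and present for 80 h, and in the 72 h group absent for 72 h and present for 48 h. The 120 h group had no E2 for 120 h. These courses each lasted 120 h in all, while the untreated group is recorded at 0 h. In comparisons with untreated cells, time in culture and E2 withdrawal therefore cannot be told apart. Among the other groups a longer withdrawal always went with a shorter time with E2 back, so those cannot be told apart either. Each of the 5 groups had 2 libraries. Nothing in the labels says that the 2 came from separate cultures or how many clones the cells came from, so the spread behind each p-value is that of the libraries and may be technical.

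As background, complex I takes electrons from NADH, passes them to ubiquinone and pumps protons across the inner mitochondrial membrane, and complex III takes them from ubiquinol onward to cytochrome c. The mitochondrial genome is copied into long RNAs from both strands, which are cut at the tRNAs between the genes, so the abundance of single mRNAs depends on how long each lasts as well as on how much is made. Mature neutrophils, a product of myeloid progenitors, are known for few mitochondria and for energy from glycolysis.

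In GRCm38 with the GENCODE M21 annotation, each of the 8 genes is a single exon on chromosome M. mt-Nd1 lies at 2751 to 3707, mt-Nd2 at 3914 to 4951, mt-Nd3 at 9459 to 9806, mt-Nd4l at 9877 to 10173, mt-Nd4 at 10167 to 11544, mt-Nd5 at 11742 to 13565 and mt-Cytb at 14145 to 15288, all on the plus strand. mt-Nd6, at 13552 to 14070, is the only one on the minus strand. Neighbouring genes overlap at both of the places shown here, so reads there can belong to more than 1 gene. mt-Nd4l and mt-Nd4, which as background share 1 mRNA, overlap by 7 bases in different reading frames. mt-Nd5 and mt-Nd6 overlap by 14 bases at their 3′ ends on opposite strands. Each sequence is 45 bases, 5′ to 3′ on its gene's own strand, from the GENCODE M21 transcripts, and capitals mark the overlap.
mt-Nd4l, last bases: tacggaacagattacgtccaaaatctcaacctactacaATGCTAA
mt-Nd4, first bases: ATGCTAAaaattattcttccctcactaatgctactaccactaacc
mt-Nd5, last bases: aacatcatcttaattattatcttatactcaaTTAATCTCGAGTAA
mt-Nd6, last bases: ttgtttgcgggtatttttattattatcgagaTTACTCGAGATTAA

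The ends of the coding sequences also differ within the set. mt-Nd4 and mt-Cytb are 1378 and 1144 bases long, lengths that leave 1 base beyond whole codons, and both end in a bare T (the capital in the sequences here), a partial stop codon that, as background, is completed by the poly(A) tail. The other 6 genes end in a whole TAA or TAG.
mt-Nd4, last bases: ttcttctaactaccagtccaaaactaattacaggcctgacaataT
mt-Cytb, last bases: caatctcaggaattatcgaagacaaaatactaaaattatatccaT

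Nuclear copies of mitochondrial DNA can take reads from the mitochondrial genes, and 3 members have copies side by side on the minus strand of chromosome 1, near-complete for mt-Nd3 and mt-Nd4l and partial for mt-Nd4. mt-Nd3 shares 98.0% of its 50-base windows with Gm28438 (24612775 to 24613119), and over the 345 bases compared the only difference is T3C, counted from the 5′ end of mt-Nd3 (the mitochondrial base first). mt-Nd4l shares 98.8% with Gm10222 (24612407 to 24612700), and mt-Nd4 shares 62.2% with Gm28439 (24611535 to 24612410), both without a difference over the 294 and 876 bases compared. The start of mt-Nd3 and of its copy are shown with the differing base in capitals.
mt-Nd3, first bases: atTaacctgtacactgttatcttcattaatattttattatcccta
Gm28438, first bases: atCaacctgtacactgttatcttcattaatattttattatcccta

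In the deposited values almost all of these reads stood at the mitochondrial gene. Gm28438 held 2.83 to 4.17% of the summed RPKM of its pair, Gm10222 0.0557 to 0.129% and Gm28439 0.00792 to 0.0202%. mt-Nd1, mt-Nd6 and mt-Cytb shared no 50-base window with a listed copy, mt-Nd2 shared 8.19% with Gm13339 on chromosome 2, and mt-Nd5 at most 4.11% with 1 copy. Adding the copies' reads back to mt-Nd3, mt-Nd4l and mt-Nd4, an alternative chosen after seeing the data, left the number of members called the same in each comparison.

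The neighbours of mt-Nd3 showed the opposite. mt-Co2, mt-Atp6 and mt-Co3, which encode subunits of complexes IV and V, were listed at 0.352 to 1.38 RPKM, while their copies were listed at 2173 to 3237 RPKM (Gm28661), 3076 to 5149 RPKM (Gm10925) and 2124 to 5002 RPKM (Gm28437). How the reads were placed between gene and copy was not given in the sources used here. The 8 genes described here were listed at 137 to 1757 RPKM over all libraries, and mt-Co1 at 2065 to 3438 RPKM. mt-Co1 too has partial copies. It shares 28.7% of its windows with Gm29216, listed at 3125 to 4327 RPKM, or 54.3 to 61.5% of the pair, and 27.5% with Gm13340. Its own row may therefore also lack reads.

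**Figure D1:**
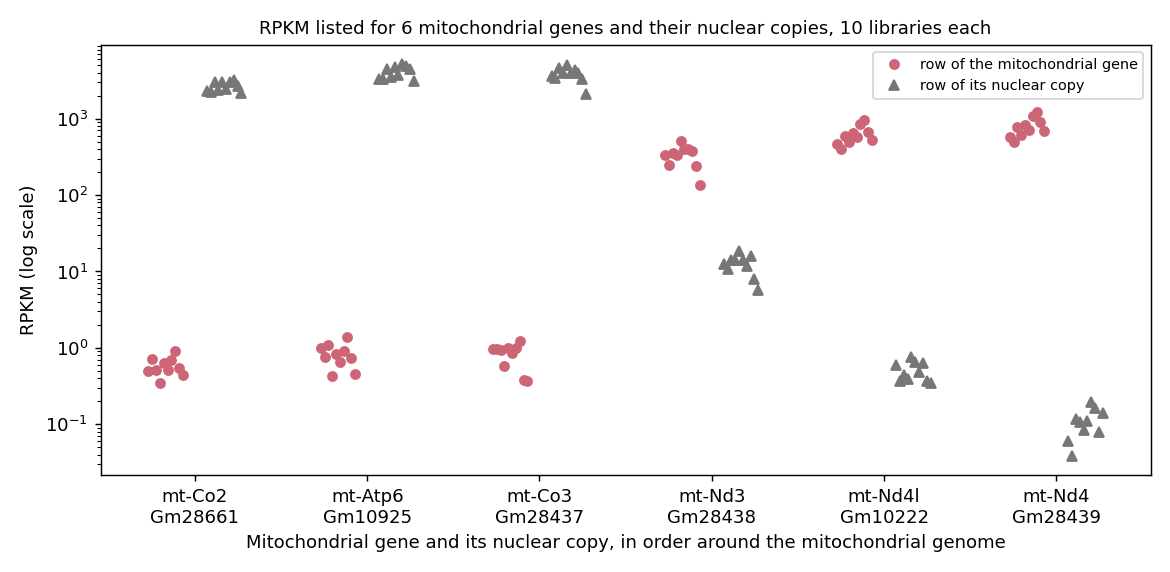
RPKM on a log scale (vertical axis) listed for 6 mitochondrial genes (circles) and for their nuclear copies on chromosome 1 (triangles), 10 libraries each, in order around the mitochondrial genome. mt-Co2, mt-Atp6 and mt-Co3 lie near or below 1 RPKM with their copies above 2000, and mt-Nd3, mt-Nd4l and mt-Nd4 lie above 100 with their copies below 20.

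Over the whole series the libraries' RPKM denominators came to 173620000 to 204380000 reads, recovered from the steps between low values. Members held from 9650 reads (mt-Nd3, 120 h replicate 2) to 369152 reads (mt-Cytb), so counting error was 0.165 to 1.02% and the spread between libraries was far larger. The 5 progenitor markers (Kit, Flt3, Cd34, Meis1 and Myb) summed to 1494 and 1523 RPKM in untreated cells, 1240 to 1453 in the 24 h and 40 h groups, 619 and 659 at 72 h and 75.5 and 106 at 120 h. At 72 h 3 of the 5 were called lower (Flt3, Cd34 and Meis1). Kit was not called, nor was Myb, with means of 240 RPKM untreated and 243 at 72 h. All 5 were called lower at 120 h. The 6 neutrophil markers (S100a8, S100a9, Ltf, Camp, Ngp and Lcn2) summed to 34.4 to 44.1 RPKM in the first 3 groups, 284 and 492 at 72 h and 22230 and 23250 at 120 h. The 6 monocyte markers summed to 332 and 349 RPKM in untreated cells, 995 and 1051 at 72 h and 1388 and 1455 at 120 h, with 5 higher and Ccr2 lower in both (113 and 111 RPKM to 35.8 and 47.6 at 72 h). The sum of the 4 mast cell, basophil and eosinophil markers was highest at 72 h. They summed to 186 to 212 RPKM untreated, 225 to 243 at 24 h, 315 to 382 at 40 h, 1350.0 to 1531 at 72 h and 263 to 489 at 120 h. The eosinophil granule gene Prg2 made most of this sum at 72 h (1484 and 1306 RPKM), and at 72 h 2 of the 4 were higher and 2 lower. The lower ones were Mcpt8 (means of 48.9 RPKM untreated and 11.2 at 72 h) and Cpa3 (125 and 31.3). Epx had a mean of 3.06 RPKM at 72 h and 3.33 at 120 h. The 5 lymphoid markers summed to 19.3 and 24.7 RPKM in untreated cells and 0.932 in each 72 h library, with 3 of 3 tested (Dntt, Rag1 and Cd79a) called lower at 40 h, 72 h and 120 h, and Cd3e of T cells was at 0 in 8 of 10 libraries. The 6 erythroid and megakaryocyte markers summed to 7.07 to 19.0 RPKM in all libraries. Of the 2 tested, Pf4 was called higher at 72 h and 120 h (log2 fold change 1.02 and 2.37) and Itga2b lower (-1.61 and -1.40). The part of these cell types in the members' changes was not tested. In these bulk libraries a change in the mix of cells and a change in RNA per cell cannot be told apart.

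Summed over the 8 genes, RPKM was 4696 and 4230 in the untreated libraries, 6081 and 4971 at 24 h, 6633 and 5593 at 40 h, 7632 and 8555 at 72 h, and 5611 and 4254 at 120 h. Their share of all coding RPKM was 1.07 and 0.949% in untreated cells, 1.38 and 1.13% at 24 h, 1.48 and 1.3% at 40 h, 1.84 and 2.18% at 72 h and 1.33 and 1.12% at 120 h. The 72 h libraries were the highest and the untreated libraries the lowest, with no overlap between untreated and any other group in this share. Replicate 1 was the higher library in the untreated, 24 h, 40 h and 120 h groups, and replicate 2 in the 72 h group.

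mt-Nd1 sits where the membrane arm meets the arm that oxidises NADH, beside the ubiquinone site. It was listed at 818 and 704 RPKM in untreated cells, 1049 and 854 at 24 h, 1161 and 954 at 40 h, 1349 and 1461 at 72 h, and 866 and 612 at 120 h. Both 72 h libraries lay above all others, and the 120 h libraries lay on either side of both untreated libraries. Its log2 fold change against untreated cells was 0.89 (SE 0.21, adjusted p = 0.0115) at 72 h and -0.06 (SE 0.21, adjusted p = 0.806) at 120 h.

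mt-Nd2, mt-Nd4 and mt-Nd5 are the large antiporter-like subunits that form the proton channels. mt-Nd2 was listed at 634 and 555 RPKM in untreated cells, 827 and 638 at 24 h, 839.9 and 679 at 40 h, 763 and 866 at 72 h, and 485 and 351 at 120 h. The untreated libraries lay below those of the 24 h, 40 h and 72 h groups, which overlapped each other, and the 120 h libraries lay below all. Its log2 fold change was 0.45 (SE 0.21, adjusted p = 0.118) at 72 h and -0.52 (SE 0.21, adjusted p = 0.0485) at 120 h.

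mt-Nd4 was listed at 582 and 492 RPKM in untreated cells, 784 and 616 at 24 h, 830.2 and 715 at 40 h, 1084 and 1222 at 72 h, and 908 and 698 at 120 h. Here the untreated libraries were the lowest of all 10, and the 120 h libraries overlapped the 24 h and 40 h groups. The log2 fold change was 1.1 (SE 0.20, adjusted p = 0.00268) at 72 h, the largest of the 8 in that comparison, and 0.57 (SE 0.20, adjusted p = 0.0262) at 120 h. mt-Nd5 was listed at 519 and 509 RPKM in untreated cells, 675 and 561 at 24 h, 694 and 616 at 40 h, 782 and 969 at 72 h, and 663 and 545 at 120 h. Its untreated libraries differed little from each other and again lay below all others. It rose at 72 h (log2 fold change 0.76, SE 0.17, adjusted p = 0.00855), and the value at 120 h was 0.23 (SE 0.17, adjusted p = 0.253).

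mt-Nd3, mt-Nd4l and mt-Nd6 are small subunits that link the ubiquinone end of the membrane arm to the pumping subunits. mt-Nd3 was listed at 332 and 248 RPKM in untreated cells, 353 and 337 at 24 h, 507 and 401 at 40 h, 401 and 375 at 72 h, and 242 and 137 at 120 h. It was the only member with its highest mean in the 40 h group, and its 120 h libraries were the lowest 2 of the 10. The log2 fold change was 0.65 (SE 0.26, adjusted p = 0.231) at 40 h, 0.43 (SE 0.26, adjusted p = 0.213) at 72 h and -0.66 (SE 0.26, adjusted p = 0.0458) at 120 h.

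mt-Nd4l was listed at 465 and 399 RPKM in untreated cells, 597 and 494 at 24 h, 651 and 571 at 40 h, 862 and 973 at 72 h, and 667 and 528 at 120 h. As for mt-Nd4, the untreated libraries were the lowest of the 10 and the 72 h libraries the highest. It rose at 72 h (log2 fold change 1.09, SE 0.18, adjusted p = 0.0016) and at 120 h (0.46, SE 0.18, adjusted p = 0.038). mt-Nd6 was listed at 514 and 525 RPKM in untreated cells, 681 and 559.8 at 24 h, 721 and 624 at 40 h, 770.2 and 934 at 72 h, and 652 and 539 at 120 h. Its untreated libraries too lay below all others and its 72 h libraries above all others. Its log2 fold change was 0.71 (SE 0.17, adjusted p = 0.0117) at 72 h and 0.19 (SE 0.17, adjusted p = 0.33) at 120 h.

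mt-Cytb carries the haem groups and ubiquinol sites of complex III. It was listed at 832 and 797 RPKM in untreated cells, 1115 and 911 at 24 h, 1229.8 and 1033 at 40 h, 1620.4 and 1757 at 72 h, and 1128 and 845 at 120 h. This was the most abundant member per length in all 10 libraries, and its untreated libraries were the lowest of its 10. It rose at 72 h (log2 fold change 1.05, SE 0.20, adjusted p = 0.00351), and the value at 120 h was 0.26 (SE 0.20, adjusted p = 0.251).

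**Figure D2:**
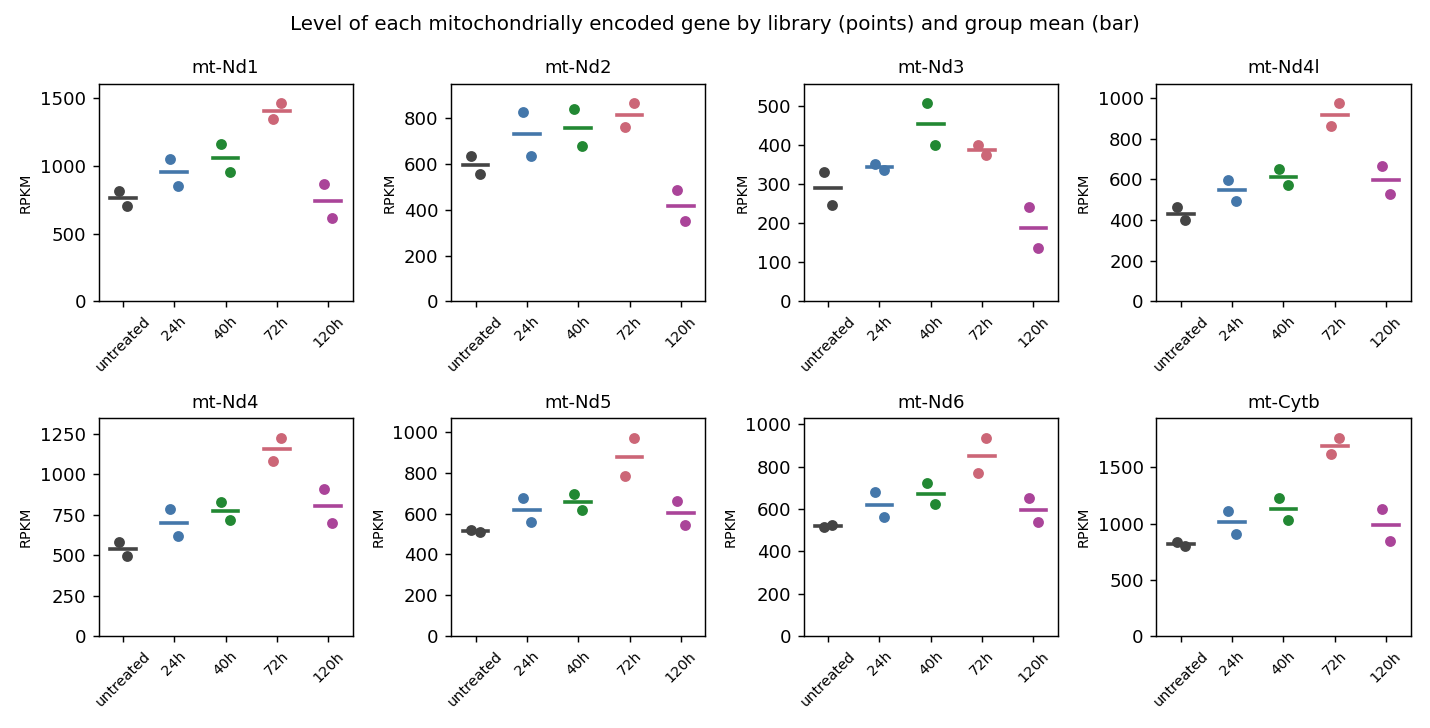
RPKM (vertical axis, from 0) of each gene in the 5 groups, with 1 point per library and a bar at the mean of the 2. The 72 h points are the highest for mt-Nd1, mt-Nd4l, mt-Nd4, mt-Nd5, mt-Nd6 and mt-Cytb, the highest mean of mt-Nd3 is at 40 h, and the 120 h points of mt-Nd2 and mt-Nd3 lie below all others.

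Whether a withdrawal of 24 h followed by E2 left a difference was asked first. All 8 genes were listed higher than in the controls: log2 fold changes ran from 0.25 (mt-Nd6) to 0.38 (mt-Nd4) with a median of 0.30, beside -0.02 over all genes. In each of the 8 the 2 libraries of the 24 h group lay above both untreated libraries, as did those of 16.9% of all genes. No member passed limma's threshold (adjusted p = 1.0 in each, and 0 of 8 at an unadjusted p under 0.05). The percentage of all 13004 genes called was 0, with 365 at an unadjusted p under 0.05; voom on recovered reads gave 0 calls as well.

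At 40 h the differences were larger but again not called. Log2 fold changes ran from 0.35 (mt-Nd5) to 0.65 (mt-Nd3), with a median of 0.47 against -0.006 over all genes, and both 40 h libraries lay above both untreated libraries for each member, as for 29.2% of all genes. Adjusted p ran from 0.176 for mt-Nd4l to 0.456 for mt-Nd2, so 0 of 8 were called, and 4 of 8 had an unadjusted p under 0.05, beside 2428 of the 13004 genes. Of all genes, 4.28% were called, 0.93% higher and 3.35% lower. Without 120 h replicate 1, or without 120 h replicate 2, mt-Nd3 and mt-Nd4l were called higher.

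The 72 h group, with the longest withdrawal before E2 returned, had the first calls among the members. In this comparison 6 of 8 members rose (mt-Nd1, mt-Nd4l, mt-Nd4, mt-Nd5, mt-Nd6 and mt-Cytb), 0 fell and 2 were not called (mt-Nd2 and mt-Nd3), and both 72 h libraries lay above both untreated libraries for each of the 8, as for 41.4% of all genes. The median was 0.82 against 0.02 over all genes. The test called 43.9% of all genes, 21.6% higher and 22.3% lower. mt-Nd4l, mt-Nd4 and mt-Cytb were about doubled, at 2.12, 2.15 and 2.07 times the untreated level on the log2(RPKM + 1) scale, against 1.37 for mt-Nd2 and 1.35 for mt-Nd3. Without untreated replicate 2, or without 72 h replicate 2, only mt-Nd4l, mt-Nd4 and mt-Cytb were called, and mt-Nd5 and mt-Nd6 were not called without untreated replicate 1.

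**Figure D3:**
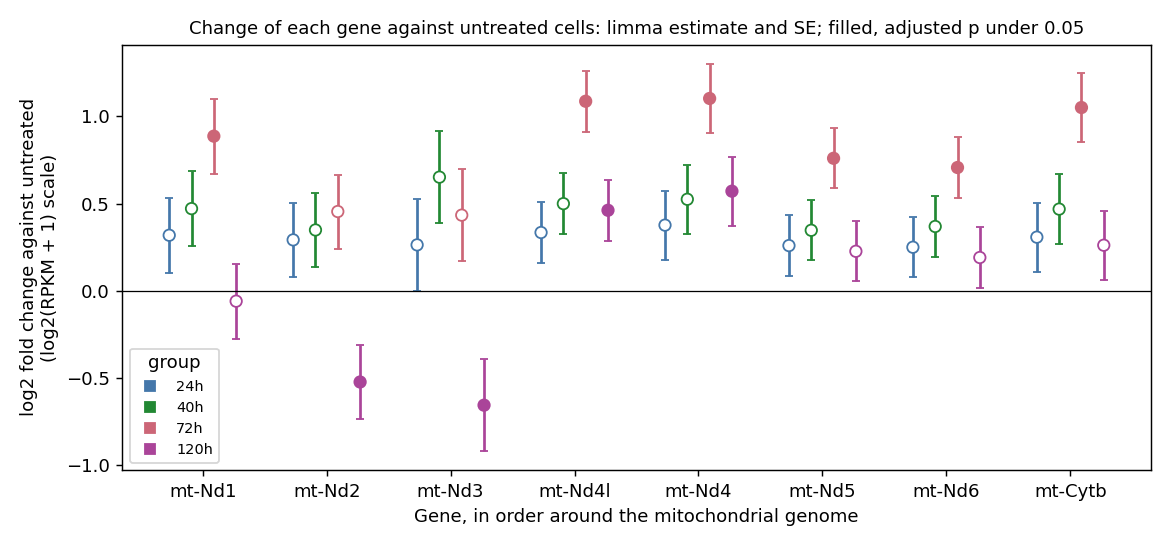
Log2 fold change against untreated cells (vertical axis, log2(RPKM + 1) scale) of each gene in the 24 h, 40 h, 72 h and 120 h groups, with limma's SE as bars and filled symbols at an adjusted p under 0.05. The 72 h symbols reach 1.1 and are filled for 6 genes, and the 120 h symbols run from -0.66 for mt-Nd3 to 0.57 for mt-Nd4.

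After 120 h without E2 the members went different ways. mt-Nd4 and mt-Nd4l rose and mt-Nd2 and mt-Nd3 fell with the deposited scaling, and the other 4 (mt-Nd1, mt-Nd5, mt-Nd6 and mt-Cytb) were not called. For 7 of 8 members, all but mt-Nd1, the 2 groups did not overlap, nor did they for 89% of all genes. Their median was 0.21 against -0.36 over all genes. Here 80.3% of all genes were called, 27.5% higher and 52.7% lower. Median-of-ratios scaling moved the median of all genes from -0.36 to -0.002 and their split from 3582 higher and 6858 lower to 5125 higher and 5016 lower. With it 5 members were higher (mt-Nd4, mt-Nd4l, mt-Nd5, mt-Nd6 and mt-Cytb) and 0 lower, and mt-Nd2 and mt-Nd3 stood at -0.08 and -0.21, uncalled. Quantile normalization gave 6 higher and 2 lower, with mt-Nd2 and mt-Nd3 the 2 that were lower, and rescaling to the RPKM outside the mitochondrial genome gave 5 higher and 0 lower. That rescaling left out only the rows of chromosome M, so the nuclear copies stayed in its scale. Leaving out 1 library left 1 to 3 members called: 2 without 120 h replicate 1 (mt-Nd2 and mt-Nd3 lower), 3 without 120 h replicate 2 (mt-Nd4, mt-Nd4l and mt-Cytb higher), 2 without 24 h replicate 1, and 1 without any of the other libraries. No member was called without the filter on low values or in a fit of the 2 groups alone.

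Between the 120 h and the 72 h group, all 8 members were lower, by 0.52 (mt-Nd6) to 1.09 (mt-Nd3) on the log2 scale, and both 120 h libraries lay below both 72 h libraries for each, as for 55.9% of all genes. The adjusted p-values ran from 0.00294 for mt-Nd2 to 0.0362 for mt-Nd4, so 8 of 8 fell, while 77.4% of all genes were called, 26.4% higher and 51% lower, with a median of -0.32 over all genes. With median-of-ratios scaling the direction was the same for all 8 (-0.65 to -0.07) and 0 were called. Without 72 h replicate 2, 4 were called and without 120 h replicate 2, 5.

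In the 72 h group against the 40 h group, mt-Nd4l was higher (log2 fold change 0.59, SE 0.18, adjusted p = 0.0395) and was the only member called, while 27.7% of all genes were called. mt-Nd4 and mt-Cytb had log2 fold changes of 0.58 with adjusted p of 0.0629 and 0.0625, and mt-Nd3 had -0.22 (adjusted p = 0.568). The call of mt-Nd4l was lost without any 1 library of the untreated, 24 h, 40 h or 72 h groups, and 5 members were called without either 120 h library. Over all 5 groups at once (limma's moderated F test), 8 of 8 members differed (adjusted p 0.00458 to 0.0374), beside 85.3% of all genes. Without 72 h replicate 2, 3 of 8 differed.

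The members' proportions to each other moved across the groups. As a share of the summed RPKM of the 8 genes, mt-Nd2 made up 13.3 ± 0.263% (SD, n = 2) in untreated cells, 13.2 ± 0.54% at 24 h, 12.4 ± 0.366% at 40 h, 10.1 ± 0.0827% at 72 h and 8.44 ± 0.289% at 120 h. mt-Nd4 went the other way, from 12 ± 0.537% to 12.6 ± 0.358%, 12.6 ± 0.188%, 14.2 ± 0.0623% and 16.3 ± 0.158%. mt-Nd3 made up 6.47 ± 0.855% in untreated cells and 3.76 ± 0.775% at 120 h, and mt-Nd4l 9.67 ± 0.322% and 12.2 ± 0.363%. These shares do not depend on how libraries are scaled, since all 8 genes of a library share its scale.

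The ratio of mt-Nd2 to mt-Nd4 was 1.09 and 1.13 in untreated cells, 1.05 and 1.04 at 24 h, 1.01 and 0.95 at 40 h, 0.704 and 0.708 at 72 h and 0.535 and 0.503 at 120 h. No 2 groups overlapped, and the ratio was lower in each group with a longer withdrawal. Among the groups with a withdrawal, a longer one also meant less time with E2 back. The ratio of mt-Nd3 to mt-Nd4 was 0.57 and 0.504 in untreated cells, 0.45 and 0.546 at 24 h, 0.611 and 0.561 at 40 h, 0.371 and 0.307 at 72 h and 0.266 and 0.196 at 120 h. The first 3 groups overlapped or lay close, and the 72 h and 120 h libraries lay below them. mt-Nd1 to mt-Nd4 went from 1.41 and 1.43 in untreated cells to 1.25 and 1.2 at 72 h and 0.954 and 0.878 at 120 h. mt-Nd2 to mt-Nd1 was 0.712 to 0.788 in the 6 libraries of the untreated, 24 h and 40 h groups and 0.56 to 0.593 in the 4 libraries of the 72 h and 120 h groups. These ratios were chosen for description with their values in view, and differences between groups in them were not tested. From untreated to 120 h the mean share was lower for mt-Nd1 (17 to 14.9%), mt-Nd2 and mt-Nd3, the 3 members upstream of mt-Nd4l on the plus strand. It was higher for mt-Nd4l, mt-Nd4, mt-Nd5 (11.5 to 12.3%), mt-Nd6 (11.7 to 12.1%) and mt-Cytb (17.7 and 18.8% to 20.1 and 19.9%). The untreated and 120 h libraries overlapped for mt-Nd5 and mt-Nd6. At 72 h the mean share of mt-Nd1 was 17.4%, not lower than in untreated cells. mt-Co1, not a member, lies between mt-Nd2 and mt-Nd3 and did not follow this order. Its log2 fold change at 120 h against untreated cells was 0.26 (uncalled), beside 0.26 for mt-Cytb and -0.52 for mt-Nd2. Copies of genes in the same stretch stood at 0.19 (Gm29216), 0.18 (Gm10925), 0.08 (Gm28661) and -0.41 (Gm28437), all uncalled. Whether the changes followed position was not tested.

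**Figure D4:**
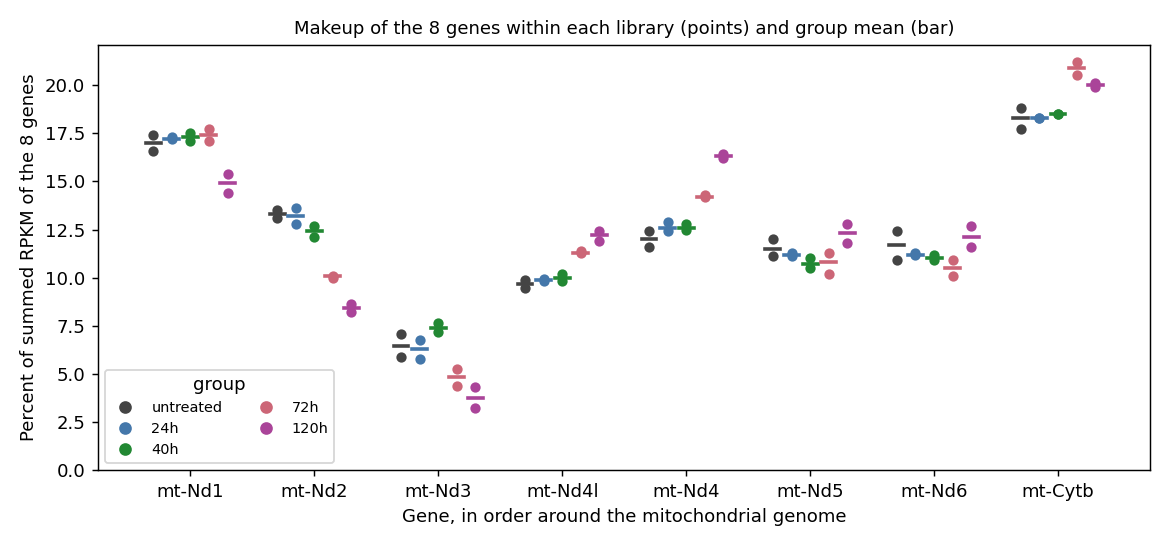
Percent of the summed RPKM of the 8 genes (vertical axis, from 0) held by each gene, in order around the mitochondrial genome, with 1 point per library and a bar at the group mean. The points of mt-Nd2 go down from 13.3 to 8.44% from untreated to 120 h and those of mt-Nd4 go up from 12 to 16.3%.

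Other pairs of neighbours varied less. The ratio of mt-Nd4l to mt-Nd4 was 0.761 to 0.811 in the untreated, 24 h, 40 h and 72 h libraries and 0.735 and 0.757 at 120 h, below all of those. The ratio of mt-Cytb to mt-Nd5 was 2.07 and 1.81 at 72 h, above the 1.55 to 1.77 of the other 8 libraries. mt-Nd6, the light-strand gene, which overlaps the end of mt-Nd5, had 0.964 to 1.04 times the RPKM of mt-Nd5 in all 10 libraries. A ratio of mt-Nd6 to the arithmetic mean of the other 7 was 0.86 and 0.992 in untreated cells, 0.883 and 0.888 at 24 h, 0.853 and 0.88 at 40 h, 0.786 and 0.858 at 72 h and 0.92 and 1.02 at 120 h. Differences between the 5 groups did not pass the exact permutation test (p = 0.193 over 945 arrangements, of which the smallest possible p is 0.00106). The group means spanned 0.24 on the log2 scale.

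Whether counting used strand is not given in the sources used here, so the values were examined for it. Among 51 genes lying at least 90% inside exons of a coding gene on the opposite strand (outer gene at 10 RPKM or more), the inner gene held a median of 0.747 times the RPKM of the outer gene, 25 of 51 were within 0.5 to 2 times it, and 6 were under 0.05 times. Such values do not separate strands, and reads from mt-Nd6 cannot be told apart from heavy-strand RNA of the same stretch. The row of mt-Nd6 is therefore uncertain as a measure of the light-strand mRNA.

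Complex I also has nuclear-encoded subunits, and in the list of 36 of them none was called higher with the deposited scaling (2 were at 72 h when rescaled to the RPKM outside the mitochondrial genome, and 1 at 120 h with median-of-ratios scaling). None of the 36 was called at 24 h or 40 h. Over all genes, 21.6% were called higher and 22.3% lower at 72 h, and 27.5% higher and 52.7% lower at 120 h. The counts of this list and of those that follow stand beside these shares. At 72 h 0 rose and 10 fell (median -0.28), among them Ndufa6 (-0.70) and Ndufv3 (-0.70). Ndufb8, the most abundant uncalled one, went from 232 ± 2.26 to 168 ± 30.3 RPKM (log2 fold change -0.47, adjusted p = 0.0576). At 120 h 33 fell and 0 rose (median -1.18), led by Ndufa12 (29.7 ± 1.44 to 6.93 ± 2.67 RPKM, log2 fold change -1.99, adjusted p = 3.956e-05), Ndufv1 of the NADH-binding site (-1.73) and Ndufc1 (-1.59), and Ndufa3 was not called (-0.22). The count at 120 h was 29 lower with median-of-ratios scaling (median -0.74). At 72 h the count of lower subunits was 5 and 4 without untreated replicate 1 and 2, 4 without 72 h replicate 2, and 20 without either 120 h library.

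**Figure D5:**
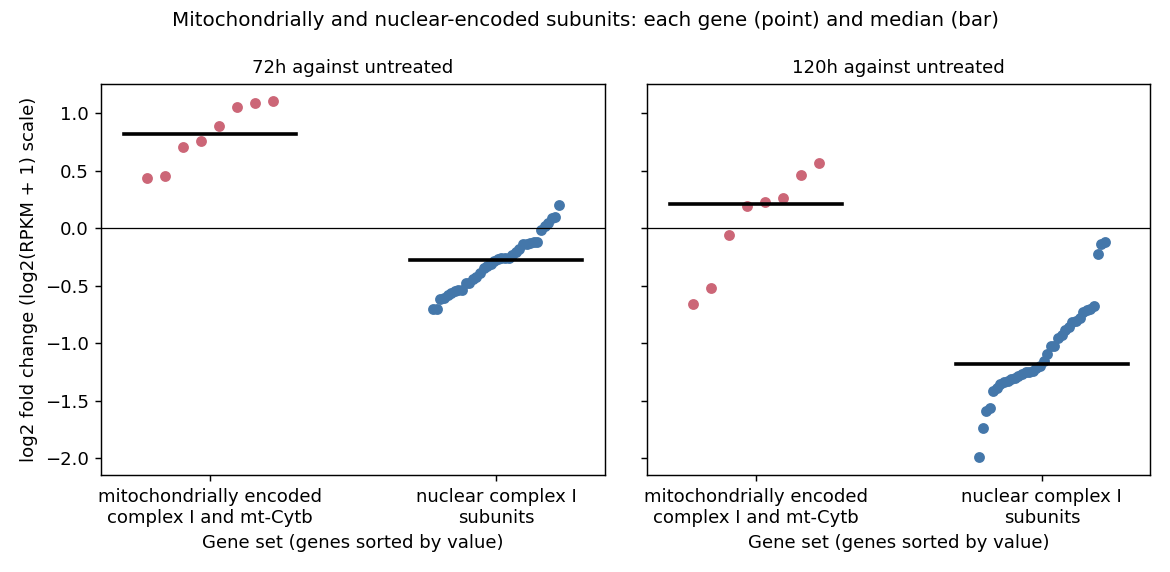
Log2 fold change against untreated cells (vertical axis, log2(RPKM + 1) scale) at 72 h and 120 h for the 8 mitochondrially encoded genes and the 36 nuclear-encoded complex I subunits, 1 point per gene and a bar at the median. The medians are 0.82 and -0.28 at 72 h, and 0.21 and -1.18 at 120 h.

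Nuclear genes for the assembly of complex I and for complex III were mostly lower at 120 h as well. Of 14 complex I assembly factors 14 fell (median -1.04), with Ecsit (-2.04), Ndufaf2 (-1.88) and Ndufaf6 (-1.69) the largest, or 11 lower and 1 higher with median-of-ratios scaling. At 72 h 1 rose (Ndufaf4, 0.81) and 2 fell (Ndufaf3, -0.40, and Nubpl, -0.35), and Foxred1 stood at -0.10, uncalled. Both falls were lost without untreated replicate 1, untreated replicate 2 or 72 h replicate 2. Of 15 nuclear complex III subunits and assembly factors, the partners of mt-Cytb, 15 fell at 120 h (median -1.19), among them Bcs1l (-2.03), which inserts the Rieske protein, Uqcc2 (-1.90), needed for cytochrome b assembly, and Uqcrq (-1.78). With median-of-ratios scaling 12 of the 15 complex III genes were lower. At 72 h 4 of 15 fell, among them Uqcrh (-0.84), and 1 rose, beside 22.3% of all genes called lower and 21.6% higher. Uqcrc2 stood at -0.22, uncalled. The 4 were 2 without untreated replicate 2 or 72 h replicate 2 and 7 without either 120 h library, and the 1 that rose was lost without any 1 library of the other 4 groups.

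Of 12 mitochondrial proteins outside the respiratory chain, 0 were called at 72 h and 12 fell at 120 h (median -1.31). The chaperones Hspe1, Hspa9 and Hspd1 had -2.52, -2.44 and -2.30 at 120 h. With median-of-ratios scaling 9 of the 12 were lower. At 72 h quantile normalization called 2 of the 12 higher, and leaving out either 120 h library 2 higher and 3 lower.

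Nuclear factors that act on mitochondrial RNA moved in both directions at 72 h. Of 20 RNA processing and stability genes 10 rose and 2 fell (median 0.28), among them Fastkd2 (4.34 ± 0.0969 to 7.36 ± 0.0693 RPKM, log2 fold change 0.65, adjusted p = 0.00163) and Tbrg4 (0.61), RNA-binding proteins of the FASTK family, higher, and Hsd17b10 (-0.89), a subunit of mitochondrial RNase P, lower. Grsf1, of the RNA granules, stood at 0.001 (adjusted p = 0.993). Leaving out single libraries gave 4 and 5 higher without untreated replicate 1 and 2, 6 without 72 h replicate 1 and 4 to 12 over all 10 libraries. At 120 h 19 of 20 fell (17 lower and 1 higher with median-of-ratios scaling), among them Ptcd3 (-1.75) and Supv3l1 (-1.68), the helicase of the mitochondrial RNA degradation machinery.

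Among 9 mitochondrial transcription genes at 72 h, Mterf3 (0.58) and the initiation factor Tfb2m (0.42) rose, Mterf2 fell (-0.76) and Tfam, the packaging and initiation factor, was not called (-0.14). At 120 h 8 of these 9 fell, among them Mterf2 (-1.51), the RNA polymerase Polrmt (10.02 ± 0.116 to 3.09 ± 0.125 RPKM, -1.43) and the elongation factor Tefm (-1.26), and Mterf3 stood at 0.22, uncalled. With median-of-ratios scaling 4 of the 9 were lower and 1 higher. Of 14 genes of mitochondrial DNA replication and maintenance, 2 rose (Dna2, 1.00, and the polymerase Polg, 0.60) and 2 fell (among them Tk2, -0.51) at 72 h, and 4 rose and 6 fell at 120 h (7 and 6 with median-of-ratios scaling), among them the helicase Twnk (-2.06) and Top1mt (-1.95). At 120 h 27.5% of all genes were called higher and 52.7% lower. Without either 120 h library 4 of these 14 were higher and 4 lower at 72 h, and 2 of the 9 transcription genes were lower. Without untreated replicate 2 or 72 h replicate 1, 1 of the 14 was lower. Of 8 biogenesis regulators 1 rose (Pprc1, 0.55) and 1 fell (Gabpb1, -0.38) at 72 h and 6 fell at 120 h, among them Myc (188 ± 1.68 to 32.5 ± 14.0 RPKM, -2.56), whose value at 72 h was 0.15 (adjusted p = 0.619). Both calls at 72 h were lost without untreated replicate 1 or 72 h replicate 2, and that of Gabpb1 without untreated replicate 2. With median-of-ratios scaling 4 of these 8 regulators were lower and 1 higher at 120 h.

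Stress and RNA quality genes, 7 of them tested, had 2 higher and 2 lower at 72 h and 5 higher and 2 lower at 120 h. The immediate early genes Fos (1.62 and 4.60) and Jun (1.5 and 2.81) rose in both groups, Atf3 rose at 120 h (3.42), and Ddit3 fell at 72 h (-1.37). Without untreated replicate 1, untreated replicate 2 or 120 h replicate 2 the 5 higher at 120 h were 3, and without untreated replicate 1 or 72 h replicate 2 the 2 higher at 72 h were 1. The nuclear RNA Malat1 stood at 3.13 ± 0.276 RPKM in untreated cells, 7.46 ± 5.31 at 72 h and 20.9 ± 21.2 at 120 h, so the 2 libraries of the later groups differed from each other. The part of stress genes and RNA quality in the members' changes was not tested.

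Of the other coding genes of the mitochondrial genome, mt-Co1 of complex IV was at 2129 ± 91.0 RPKM in untreated cells, 2680 ± 492 at 24 h, 2623 ± 282 at 40 h, 3293 ± 205 at 72 h and 2566 ± 343 at 120 h. Its log2 fold change at 72 h was 0.63 (SE 0.23, adjusted p = 0.0586). Of the 5 genes of complexes IV and V, 3 passed the filter on low values, 0 were called at 72 h and mt-Co3 was called lower at 120 h (-0.51), at 0.961 and 0.373 RPKM, a row near 0 beside its nuclear copy. At 72 h 1 of the 3 was called higher with quantile normalization, rescaled outside the mitochondrial genome, with voom, with the replicate block, in a fit of the 2 groups alone, and without either 120 h library. mt-Co2 and mt-Atp8 did not pass the filter. mt-Atp8 was listed at 0.322 to 1.2 RPKM, although it shared no 50-base window with a listed copy. The reason for its low values was not tested.

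Among the 5 nuclear coding genes whose levels followed the mean of the 8 members most closely over the 10 libraries, of 5895 with a mean of at least 10 RPKM, were Cnot7 (Pearson r 0.955), Ptpn2 (0.933), Tmem128 (0.922) and Emc2 (0.915). Cnot7, a deadenylase of the CCR4-NOT complex, went from 16.7 ± 0.780 RPKM in untreated cells to 18.6 ± 0.0283, 20.4 ± 0.325, 24.0 ± 0.738 and 17 ± 1.13. These are the highest of many correlations over 10 libraries that fall in only 5 groups, and are given as a description.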

How the data were processed

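The authors deposited RPKM per Ensembl transcript, as 10 tables that each list 79535 transcripts. The submitters' processing notes name STAR and GRCm38; neither a counting program nor strand use is given in the sources used here. Identifiers were matched without version to GENCODE M21 (77720, 97.7%), and each gene was represented by 1 transcript (coding, APPRIS principal, CCDS, longest). Values times length were whole multiples of 1 read in 100% of 826 to 1061 values tested per library (tolerance 0.02 reads).

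Fold changes are on the log2(RPKM + 1) scale, which understates those of low genes. A linear model (limma 3.58.1, R 4.3.3) was fitted to the 13004 genes at RPKM 1 or more in 2 libraries, with group as the only term, all 10 libraries and a mean-variance trend (degrees of freedom: 5 residual and 3.04 prior). Tests of the 6 comparisons were 2-sided, with Benjamini-Hochberg adjustment over all 13004 genes and calls at an adjusted p under 0.05. The mt-Nd6 ratio had an exact permutation test (SciPy 1.17.1, Python 3.11.15). The scripts were tested on simulated data. The alternatives were other scalings, pseudocount, filter and model, a replicate block, and leaving out groups or libraries.

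The members and the 11 lists were chosen with earlier results of these data known. Named besides the 8 members and the 5 other mitochondrial coding genes are, per list and for 72 h and 120 h, up to 3 called genes with the largest change and the uncalled gene with the highest RPKM, the 5 nuclear coding genes most like the members, and nuclear copies. Some genes chosen by this rule are not reported here. In the list of RNA processing genes 1 of 21 names is a synonym of another, which left 20.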

Additional observations from a re-analysis of the deposited data

How the results depend on the processing

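The log2 fold changes of the 8 genes in the 6 comparisons gave 944 values under the alternatives, of which 792 kept their direction and side of the threshold, 90 were no longer called, 56 became called and 6 turned direction. Those 6 were mt-Nd1 at 120 h against untreated (0.38 with median-of-ratios scaling, 0.54 with quantile normalization, 0.22 rescaled to RPKM outside the mitochondrial genome, 0.048 without untreated replicate 1 0.19 without 120 h replicate 2, and -0.31 to 0.19 over single libraries left out) and mt-Nd2 at 72 h against 40 h (-0.047 without 40 h replicate 2, and up to 0.26 without 40 h replicate 1). The number of members called moved as follows. At 40 h against untreated it was 2 without the 120 h group, 4 with only the 2 groups compared and 0 to 2 without single libraries. At 72 h against untreated it was 3 to 8 without single libraries. At 120 h against untreated it was 8 with quantile normalization, 0 with no filter, 0 with only the 2 groups compared and 1 to 3 without single libraries. At 72 h against 40 h it was 6 with quantile normalization, 4 rescaled outside the mitochondrial genome, 0 with no filter, 3 with voom on recovered reads, 3 with only the 2 groups, 5 without the 120 h group and 0 to 5 without single libraries. At 120 h against 72 h it was 0 with median-of-ratios scaling, 5 with quantile normalization, 5 with no filter, 2 with only the 2 groups and 4 to 8 without single libraries. Over any group it was 5 with no filter and 3 to 8 without single libraries. The share of RPKM over all listed transcripts, isoforms included, was 0.215, 0.269, 0.296, 0.425 and 0.287% from untreated to 120 h. Where the cause of a move is not in the construction of the alternative, the cause was not tested. With a lone library left in a group, that library is assumed to vary like the other groups.

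The labels number the libraries 1 and 2. Deviations of replicate 1 from its group mean correlated by 0.0341 to 0.639 over the 10 pairs of groups, all positive, but not all over 0.1. They were highest among the 40 h, 72 h and 120 h groups, at 0.364, 0.414 and 0.639. The numbers were not taken to pair the libraries in the main fit, and whether they do is not known. At 72 h against untreated, 6441 genes were called with the replicate block and 5708 without it. With the replicate block the members called at 72 h against 40 h went from 1 to 3, the number called in the other comparisons was the same, and the exact permutation p of the mt-Nd6 ratio was 0.0667. Over its other alternatives that p was 0.0878 to 0.491.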

Other observations

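Other RNAs of the mitochondrial genome, outside the 8 genes, moved in both directions. The 12S rRNA, mt-Rnr1, was listed at 225 and 205 RPKM in untreated cells, 86.5 and 98.2 at 72 h and 184 and 181 at 120 h. It fell at 72 h (log2 fold change -1.21, SE 0.16, adjusted p = 0.000457), while 6 of the 8 coding genes rose, and was not called at 120 h (-0.24). The 16S rRNA, mt-Rnr2, was not called at 72 h (-0.41, adjusted p = 0.137). How rRNA was removed is not given in the sources used here.

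Among light-strand tRNA rows, the cluster mt-Ta, mt-Tn, mt-Tc and mt-Ty between mt-Nd2 and mt-Co1 fell in both later groups, with log2 fold changes of -0.96, -1.45, -1.47 and -1.31 at 72 h and -2.02, -2.20, -2.21 and -2.04 at 120 h, and mt-Tp fell too (-0.96 and -1.83). mt-Tc, for example, was listed at 525 and 376 RPKM in untreated cells, 147 and 173 at 72 h and 128 and 71.2 at 120 h, with no overlap. mt-Te, which adjoins mt-Nd6, rose at 72 h (0.77, adjusted p = 0.00916) and was not called at 120 h (0.10). Of the remaining light-strand rows, mt-Tq was called lower at 120 h only (-1.67) and mt-Ts1 was not called. The falls were not limited to light-strand rows. On the plus strand mt-Ti fell in both groups (-0.77 and -1.67). mt-Tt (-1.53), mt-Tv (-1.25), mt-Tw (-1.21), mt-Tm (-1.06) and mt-Tl1 (-0.68) fell at 120 h only. The other plus-strand tRNA rows tested were not called in either group. Over all genes, 22.3% were called lower at 72 h and 52.7% at 120 h, where the median of all genes was -0.36. These are calls with the deposited scaling, and values with the other scalings are not given for the tRNA rows. Some rows were near the floor at 120 h: mt-Tv (0.584 and 0.428 RPKM), mt-Ti (1.84 and 1.29) and mt-Tq (2.76 and 0.763). Reads of tRNA genes cannot be told apart here from longer RNA of either strand that spans them.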
